A study of Homo sapiens with 16 samples.

Results

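Messenger RNA of RWPE1 cells, an immortalised line of human prostate epithelium with basal features, was compared between 6 libraries labelled as overexpressing a wild-type prostate homeobox protein and 6 libraries labelled as carrying the empty vector, an altered pTRIPZ backbone. All 12 libraries are labelled as that cell line, with no further treatment, time point or clone named. They were chosen by their group labels from the 16 libraries of the series. The other 4 libraries carried the T164A mutant of the same protein. They add to the estimate of the spread in the test, and are compared with wild type at the end. All 20166 gene symbols were tested, and none was selected on its values before the test. Nothing in the labels tells whether the 6 libraries of a group came from different cultures. Each p-value therefore refers to the spread among libraries within the groups, T164A included, and that spread may be technical.

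The construct encodes a homeodomain protein of the NK class that is made in the luminal, secretory cells of the prostate and acts early in the formation of that layer. Luminal cells rest on a layer of basal cells, which carry hemidesmosomes, desmosomes and keratins of stratified epithelium. Luminal cells make and export prostatic fluid, rich in citrate, zinc, polyamines and proteases, and have long been studied for unusual use of the citrate cycle and for high fatty acid synthesis. The gene groups below follow those functions and the signalling, adhesion and immune pathways around them.

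Estimated depth was 12300000 to 19200000 reads per library, and 3 reads corresponded to 2.30 on the deposited log2 scale. This is called the floor below, and it covers counting error only. At wild type against vector, 21.0% of tested genes were higher and 24.5% were lower at an adjusted p below 0.05 (limma, two-sided, Benjamini-Hochberg over all genes). Of all genes, 7.64% were also higher by 2-fold or more and 1.25% lower by 2-fold or more. The groups did not overlap for 29.4% of genes. A gene is said to have risen or fallen only where it passed, and the largest adjusted p among the called genes named here was 0.00326. Vector replicates 1 and 2, vector replicates 3, 4 and 6, and wild-type replicates 13 and 15 to 18 formed sets of close libraries. Every gene group except the luminal, basal, squamous and Y-linked markers is therefore also counted with each set averaged to 1 value. This leaves 3 vector and 2 wild-type values. That count follows in parentheses as "sets averaged".

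Markers of cell types moved with the groups. Luminal markers of the prostate rose in 24 of 32 cases and fell in 2, and their summed share of the signal was 0.0556% to 0.0674% in vector libraries and 0.48% to 0.969% in wild-type libraries. Of these 32, 22 rose by 2-fold or more, and ALOX15B and NPY lay below the floor in both groups. Basal markers fell in 22 of 28 cases, none of them by 2-fold or more. They made up 2.55% to 2.88% of the signal in the vector and 1.7% to 2.2% in wild type. The fall of the basal marker KRT5 lost its call with sets averaged, as given below. Of the squamous and cornified envelope genes, 27 of 33 fell, from 0.876% to 1.15% down to 0.527% to 0.712%. Y-linked genes were higher in 10 of 11 cases, at 0.00215% to 0.00268% against 0.0401% to 0.0801%. The fibroblast, endothelial, leukocyte and seminal vesicle markers lay below the floor in both groups for 17 of 26 genes, DCN, COL1A2, CD3E, CDH5 and SEMG1 among them. Of the 26, 3 rose and 7 fell (2 and 2 with sets averaged), and their share went from 0.0151% to 0.0209% in the vector to 0.0122% to 0.0145% in wild type. Of 20 neuroendocrine markers, 4 rose and 2 fell (2 and 1 with sets averaged), or 3 and 5 under quantile normalization, and 11 lay below the floor in both groups. Since the luminal and Y-linked shares were higher in every wild-type library, a response of RWPE1 cells to the construct and RNA of another prostate line cannot be told apart for the rises below. The part of these markers in the results was not tested, and in bulk libraries fewer cells of a type and less RNA per cell cannot be told apart.

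The wild-type libraries differed from each other in a regular way. Over the 124 genes that rose by 3 or more (log2) and had a wild-type mean of 8 or more, replicate 14 was the lowest of the 6 libraries for all 124. Its difference from the median of the other 5 libraries was -0.72 at the median gene, with a 5th percentile of -0.94 and a 95th of -0.58 over the genes. Replicate 18 was the highest library for 112 of these genes, by 0.30 at the median gene. Among 107 genes with a vector mean of 8 or more that fell by 0.8 or more, replicate 14 was the highest wild-type library for 64 and replicate 18 the lowest for 74. The luminal share followed the same order, with 0.48% in replicate 14 as the lowest and 0.969% in replicate 18 as the highest, and so did the Y-linked share, from 0.0401% to 0.0801% in the same libraries. Whether the libraries differ in their content of another cell line was not tested. No call named in the text was lost when any 1 library was left out. Most of these genes were named for a small p, a large change or groups that do not overlap, which favours that outcome.

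**Figure D1:**
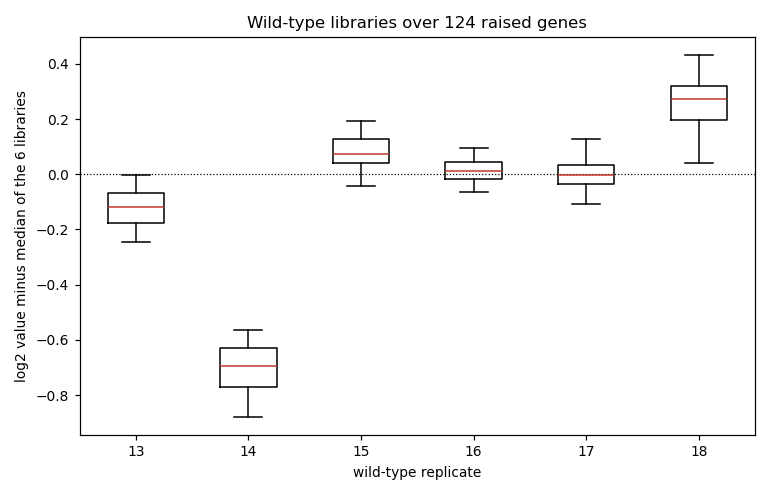
Deviation of each wild-type library (x axis, replicate number) from the median of the 6 libraries, in log2 units, over the 124 genes that rose by 3 or more with a wild-type mean of 8 or more. Boxes span the quartiles, red lines are medians and whiskers reach the 5th and 95th percentiles; the box of replicate 14 lies below all the others.

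Changes among well expressed genes were modest in size and uneven in direction. Of 8663 genes with a vector mean of 8 or more, the median change was -0.11 (log2), the 1st and 99th percentiles were -0.83 and 1.27, and 161 rose by 1 or more while 35 fell by 1 or more. Rises reached further: 28 of these genes rose by 2 or more, 9 by 3 or more, and 5 fell by 1.5 or more. Toward the highest levels the spread turned to the lower side. Among the 54 genes with a vector mean of 14 or more, the 5th and 95th percentiles of the change were -0.85 and 0.15, against -0.61 and 0.80 among the 4667 genes between 8 and 10. Levels were set by the vector mean alone, which favours falls among the genes highest in the vector. These percentiles were not computed under quantile normalization. Quantile normalization of the libraries moved the median change of all genes by -0.15 and that of genes with a mean of 6 or more by -0.02, so that the share of called genes that were higher went from 46.2% to 38.1%.

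**Figure D2:**
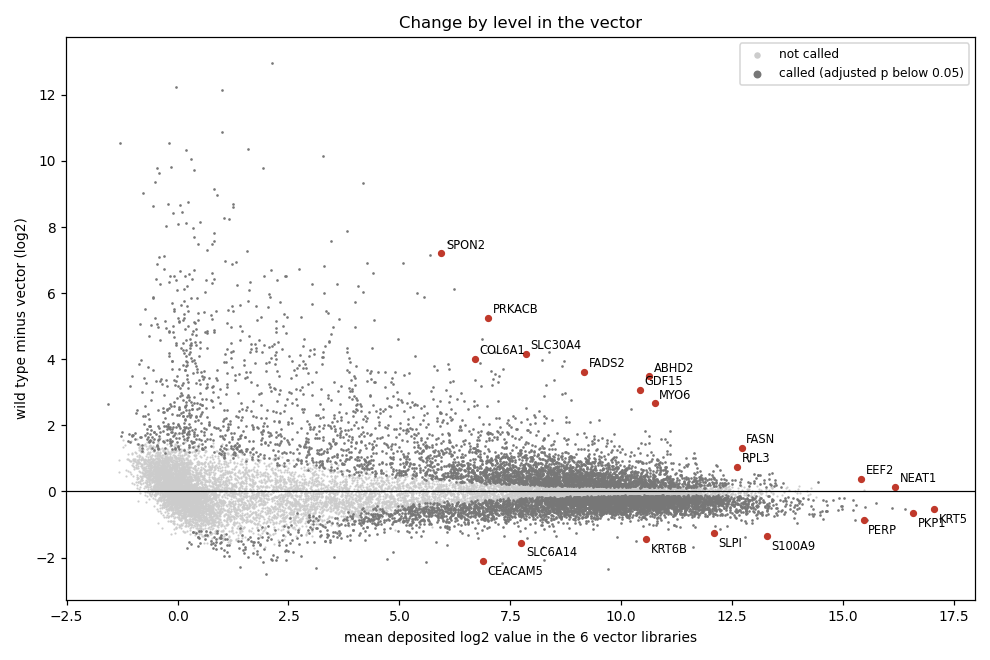
Difference between wild type and vector (log2, y axis) against the mean deposited log2 value in the 6 vector libraries (x axis) for all genes tested. Large rises are found at low and middle levels, while KRT5, PKP1 and PERP, at the right, lie below 0.

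Lipid, secretory and desmosomal genes were among the transcripts that gained or lost most of the signal. The shares here are of the summed linear values, not corrected for length, so each gene is compared only with itself. ABHD2, a lipid hydrolase, went from 0.0104% ± 0.0005 (SD, n = 6) of the signal to 0.124% ± 0.024. FASN, the fatty acid synthase, went from 0.0441% ± 0.0036 (SD, n = 6) to 0.117% ± 0.017, and MYO6, a minus-end myosin of endocytic traffic, from 0.0113% ± 0.00074 (SD, n = 6) to 0.0763% ± 0.014. GDF15, a secreted stress cytokine of the TGF-beta superfamily, went from 0.009% ± 0.00087 (SD, n = 6) to 0.0806% ± 0.015. SPON2, a secreted matrix protein, went from 0.000407% ± 6.9e-05 (SD, n = 6) to 0.0641% ± 0.013. Losses included KRT5, the basal keratin, from 0.887% ± 0.071 (SD, n = 6) to 0.649% ± 0.065, and PKP1, a desmosomal plaque protein, from 0.64% ± 0.021 (SD, n = 6) to 0.431% ± 0.044. PERP, another desmosomal protein, went from 0.297% ± 0.023 (SD, n = 6) to 0.171% ± 0.017. TGFBI, a matrix protein induced by TGF-beta, went from 0.156% ± 0.0089 (SD, n = 6) to 0.0917% ± 0.0092. The fall of KRT5 by 0.53 (SE 0.09) and that of the desmoplakin gene DSP by 0.52 (SE 0.09) lost their calls under quantile normalization (adjusted p = 0.38 and 0.121) and with sets averaged (0.0842 and 0.162). The nuclear RNA NEAT1 also gained signal, but its difference of 0.14 did not pass (adjusted p = 0.201), while under quantile normalization it did, at 0.67.

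Outside the cell type markers, the largest rises from an expressed level included signalling, transport and matrix genes. PRKACB, a catalytic subunit of protein kinase A, had lowest, median and highest log2 values of 6.83, 7.0 and 7.22 in the vector and 11.66, 12.30 and 12.61 in wild type. Its groups lay far apart, and it rose by 5.26 (SE 0.11) with an adjusted p of 1.3e-22. SLC30A4, a zinc exporter, went from 7.71, 7.87 and 7.97 to 11.47, 12.11 and 12.36, a rise of 4.17 (SE 0.11). ABCC4, an exporter of cyclic nucleotides and prostaglandins, rose by 3.99 (SE 0.10). RASSF3, of the RASSF family of tumour suppressors, rose by 3.96 (SE 0.10). LIMCH1, an actomyosin regulator, rose by 3.79 (SE 0.10). HES6, a basic helix-loop-helix factor that opposes HES1, rose by 3.85 (SE 0.14). DSEL, which forms iduronic acid in dermatan sulphate, rose by 3.65 (SE 0.12). GULP1, an adaptor of engulfment, rose by 3.57 (SE 0.11). MARCKSL1, a membrane-bound substrate of protein kinase C, rose by 3.49 (SE 0.12) and the adhesion receptor LPHN1 by 3.40 (SE 0.10). EEF1A2, the elongation factor of muscle and neurons, rose by 3.37 (SE 0.13), whereas the common elongation factor EEF2 rose by 0.37 (SE 0.09) with overlapping groups and lost its call with sets averaged (adjusted p = 0.426). The 15 largest such rises also included COL6A1, LRIG1, FADS2 and ABHD2, described below with their groups or promoters.

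Falls were smaller, and those from an expressed level included surface and secreted genes of stratified epithelium. CEACAM5, a GPI-anchored adhesion molecule, went from 5.62, 7.31 and 7.67 in the vector to 4.40, 4.79 and 5.11 in wild type and fell by 2.11 (SE 0.53, adjusted p = 0.00183). Its relative CEACAM6 went from 5.92, 6.69 and 7.16 to 4.70, 5.33 and 5.42 and fell by 1.32 (SE 0.31). For both genes every wild-type library lay below every vector library. SLC6A14, an importer of neutral and cationic amino acids, fell by 1.55 (SE 0.19). KRT6B and KRT6C, keratins of activated epithelium, fell by 1.45 (SE 0.17) and 1.25 (SE 0.18); these near-identical paralogs may share reads. SLPI, an antiprotease of mucosal surfaces, fell by 1.26 (SE 0.12) and the kallikrein KLK6 by 1.34 (SE 0.18). The potassium channel KCNJ15 fell by 1.41 (SE 0.20), the heat-sensitive channel TRPV3 by 1.14 (SE 0.18) and the ammonium transporter RHCG by 1.25 (SE 0.19). PAPPA2, a protease of IGF-binding proteins, fell by 1.41 (SE 0.24). The raft protein gene MALL fell by 1.18 (SE 0.16) and the serine protease gene TMPRSS4 by 1.13 (SE 0.15). CLCA4, of a family linked to chloride channels, fell by 1.22 (SE 0.31) but not with sets averaged (adjusted p = 0.0529).

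Promoter windows of 300 bases (250 before and 50 after the annotated start, RefSeq, GRCh38.p14) were at hand for 13747 of the tested genes, and where a gene had several starts the first one listed was used. Of the genes that fell by 1 or more from a vector mean of 5 or more, 54 had a window, and 15 of these (27.8%) held TGANTCA, the letters bound by AP-1 factors, against 5.91% of all windows. Outside the squamous list the count was 9 of 39 (23.1%). Among genes that rose by 1 or more from the same level, 13 of 368 windows (3.53%) held it. TATAAA was in 27.8% of the windows of genes that fell and in 5.43% of those that rose from the same level, against 9.53% of all. Outside the squamous list it was in 17.9% of the windows of genes that fell, and among all genes that rose by 1 or more, whatever their level, in 10.2%. CCAAT, the letters bound by NF-Y, differed less, at 35.2%, 31.8% and 36.6%. TAAGTA, the core bound by NK homeodomain proteins, was in 3.7% of windows of genes that fell, 1.9% of those that rose from that level and 4.01% of all, and AGAACA, a hormone response half-site, was in 11.1%, 5.71% and 11.1%. Both strands were searched, no test was run, and a match is a run of letters, not a site. The shares over all windows include genes at every level. No share was computed for all genes with a vector mean of 5 or more, so the reference is not matched for level.

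The windows of 3 genes that fell and of 3 that rose show where these letters lie, as examples picked after the matches were known. Capitals mark TGANTCA in the first 3, CCAAT (here on the reverse strand) and TATAAA in GDF15, and CCAAT in SLC30A4 and ABHD2. A CCAAT match 25 bases after the start of KCNJ15 is left in lower case. Each is written 5′ to 3′ on the strand of its gene. The windows are chrX:116436356-116436655 (plus strand) for SLC6A14, chr17:3557763-3558062 (minus strand) for TRPV3, chr21:38272258-38272557 (plus strand) for KCNJ15, chr19:18385908-18386207 (plus strand) for GDF15, chr15:45522706-45523005 (minus strand) for SLC30A4 and chr15:89040748-89041047 (plus strand) for ABHD2.
SLC6A14: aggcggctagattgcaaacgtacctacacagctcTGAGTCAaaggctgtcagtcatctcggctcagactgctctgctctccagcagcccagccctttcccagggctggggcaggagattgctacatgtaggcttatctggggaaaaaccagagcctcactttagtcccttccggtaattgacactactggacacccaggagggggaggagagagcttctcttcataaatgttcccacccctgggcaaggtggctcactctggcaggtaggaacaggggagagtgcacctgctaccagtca
TRPV3: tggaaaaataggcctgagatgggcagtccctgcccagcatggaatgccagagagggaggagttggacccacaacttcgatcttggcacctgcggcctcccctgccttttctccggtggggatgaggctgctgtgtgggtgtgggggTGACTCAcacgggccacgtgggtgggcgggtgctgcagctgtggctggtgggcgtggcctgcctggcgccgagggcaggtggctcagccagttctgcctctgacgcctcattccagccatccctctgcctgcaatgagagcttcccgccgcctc
KCNJ15: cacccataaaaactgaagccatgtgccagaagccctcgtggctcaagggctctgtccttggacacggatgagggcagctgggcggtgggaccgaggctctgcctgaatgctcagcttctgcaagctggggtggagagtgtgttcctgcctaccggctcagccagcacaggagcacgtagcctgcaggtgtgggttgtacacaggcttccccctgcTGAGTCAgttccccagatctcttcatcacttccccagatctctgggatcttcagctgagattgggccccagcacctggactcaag
GDF15: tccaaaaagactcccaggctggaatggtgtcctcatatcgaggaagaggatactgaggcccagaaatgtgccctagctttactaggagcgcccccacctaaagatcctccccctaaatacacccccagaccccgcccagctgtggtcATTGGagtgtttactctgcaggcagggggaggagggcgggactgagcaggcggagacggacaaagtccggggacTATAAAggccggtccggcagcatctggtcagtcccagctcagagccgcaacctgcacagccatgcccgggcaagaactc
SLC30A4: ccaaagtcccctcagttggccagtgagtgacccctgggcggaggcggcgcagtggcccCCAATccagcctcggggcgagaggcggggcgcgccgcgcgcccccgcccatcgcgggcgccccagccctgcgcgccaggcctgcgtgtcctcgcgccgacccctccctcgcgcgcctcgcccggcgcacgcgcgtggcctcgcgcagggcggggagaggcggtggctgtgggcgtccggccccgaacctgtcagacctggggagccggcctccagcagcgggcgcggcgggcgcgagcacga
ABHD2: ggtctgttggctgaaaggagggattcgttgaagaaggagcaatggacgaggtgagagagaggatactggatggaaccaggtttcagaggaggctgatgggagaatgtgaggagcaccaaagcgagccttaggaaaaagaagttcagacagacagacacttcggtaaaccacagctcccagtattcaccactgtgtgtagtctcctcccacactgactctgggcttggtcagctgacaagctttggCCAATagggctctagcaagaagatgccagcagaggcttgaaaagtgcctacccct
The TGANTCA match began 216 bases before the start in SLC6A14, 104 before it in TRPV3 and 35 before it in KCNJ15. In GDF15 the TATAAA match began 29 bases before the start. None of these 6 windows held TAAGTA or AGAACA.

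More genes of fatty acid synthesis rose than fell. Of 25 measured genes of synthesis and desaturation, 13 rose and 6 fell (10 and 3 with sets averaged), and their summed share of the signal went from 0.383% to 0.403% in the vector to 0.539% to 0.683% in wild type. FADS2, the desaturase that opens the path to long polyunsaturated fatty acids, went from 8.96, 9.19 and 9.34 to 12.13, 12.87 and 13.06 and rose by 3.61 (SE 0.11, adjusted p = 4.42e-19). FASN, which builds palmitate, went from 12.51, 12.71 and 12.89 to 13.63, 14.07 and 14.29 and rose by 1.32 (SE 0.09). Every wild-type library lay above every vector library for both. ACACA, which makes the malonyl-CoA that FASN uses, rose by 1.17 (SE 0.06), ELOVL5, an elongase, by 1.5 (SE 0.07) and ACSL1, which activates fatty acids, by 1.12 (SE 0.06). The median change of the group was 0.17, against -0.05 for all genes.

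Enzymes that break fatty acids down also rose more often than they fell. Of 33 genes of fatty acid oxidation, 21 rose and 1 fell (18 and 0 with sets averaged), with a median change of 0.52. ACADSB, which oxidises short branched acyl-CoA, went from 7.43, 7.47 and 7.76 to 9.03, 9.49 and 9.79 and rose by 1.95 (SE 0.09, adjusted p = 5.07e-15). ECI2, an isomerase for unsaturated acyl chains, rose by 1.79 (SE 0.10). HADH, the dehydrogenase of the third step, rose by 1.08 (SE 0.08) and ETFB, which passes the electrons to the respiratory chain, by 1.06 (SE 0.08). Synthesis and oxidation genes were higher in the same libraries, and replicate 14 had the lowest wild-type share for both groups.

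In the citrate cycle and the respiratory chain, too, rises outnumbered falls. Among 33 genes of the citrate cycle and pyruvate entry, 20 rose and 3 fell (14 and 0 with sets averaged). SUCLG2, a subunit of succinyl-CoA ligase, rose by 1.85 (SE 0.10) and PDHB, of the pyruvate dehydrogenase complex, by 1.08 (SE 0.07). PDK1, the kinase that inhibits that complex, rose too, by 0.98 (SE 0.08). ACO1, the cytosolic aconitase that doubles as an iron sensor, rose by 0.80 (SE 0.06). Of 39 nuclear subunits of oxidative phosphorylation, 24 rose and 2 fell (12 and 0 with sets averaged). ATP5A1, of the ATP synthase, went from 11.30, 11.41 and 11.68 to 12.12, 12.49 and 12.66 and rose by 1.0 (SE 0.07, adjusted p = 2.95e-11). The complex I subunits NDUFA1 and NDUFB10 rose by 0.80 (SE 0.08) and 0.78 (SE 0.07).

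**Figure D3:**
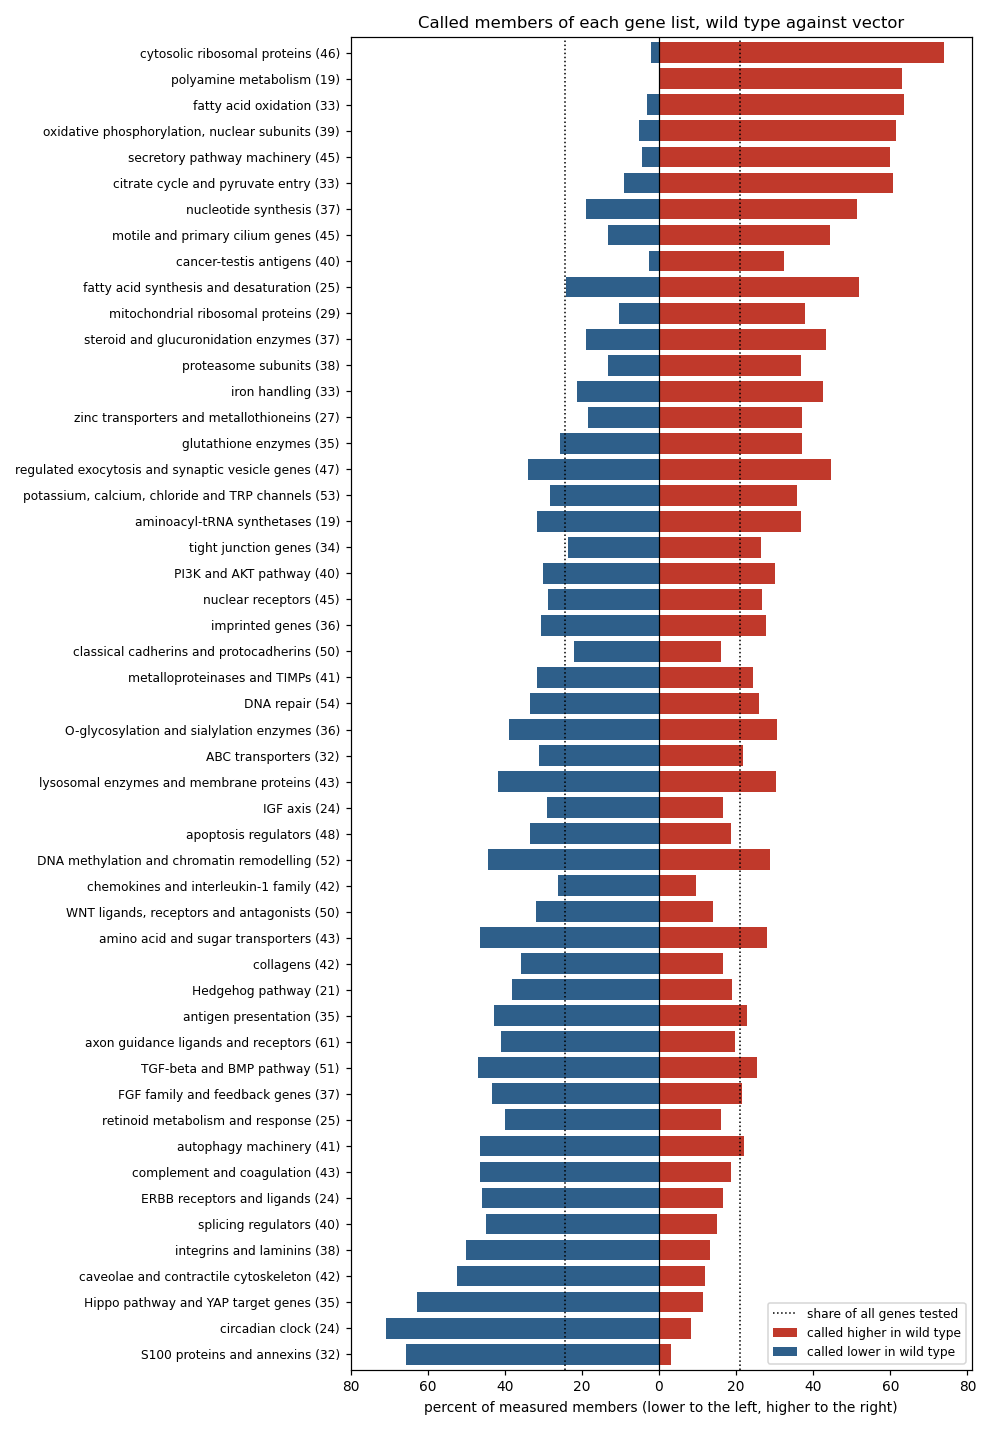
Share of measured members (percent, x axis) called higher (red, right) or lower (blue, left) in wild type for each gene list outside the cell type markers, with the number measured in parentheses; dotted lines mark 21.0% and 24.5%, the shares over all genes tested. Ribosomal, polyamine, fatty acid oxidation and respiratory genes stand at the top, and S100, clock and Hippo genes at the bottom.

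Genes of protein synthesis divided by kind. Of 46 cytosolic ribosomal protein genes, 34 rose and 1 fell (6 and 0 with sets averaged), so that most of these calls were lost when close libraries were averaged. RPL15 went from 11.49, 11.61 and 11.88 to 12.30, 12.73 and 12.90 and rose by 1.01 (SE 0.08, adjusted p = 9.63e-11), RPL32 by 0.79 (SE 0.08), RPL23 by 0.79 (SE 0.07) and RPL3 by 0.75 (SE 0.08). Vector replicates 1, 2 and 5 had shares of 1.46%, 1.54% and 1.44% for this group, close to the 1.48% of wild-type replicate 14, while the other wild-type libraries held 1.77% to 1.87%. Of 29 mitochondrial ribosomal protein genes, 11 rose and 3 fell (4 and 0 with sets averaged), and MRPL24 rose by 0.97 (SE 0.09) and MRPS35 by 0.69 (SE 0.08). Aminoacyl-tRNA synthetases showed no common direction: of 19, 7 rose and 6 fell (1 and 0 with sets averaged), with NARS, for asparagine, up by 0.61 (SE 0.06). Among 37 genes of nucleotide synthesis, 19 rose and 7 fell (10 and 1 with sets averaged). PRPS1, which makes the ribose donor of all nucleotides, rose by 1.05 (SE 0.07), the mitochondrial thymidine kinase TK2 by 1.02 (SE 0.08) and ADSL, of purine synthesis, by 0.88 (SE 0.07).

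Several genes tied to the contents of prostatic fluid rose. Among 27 zinc transporters and metallothioneins, 10 rose and 5 fell (6 and 5 with sets averaged). The median change of this list was only 0.06, with 5 members higher and 1 lower by 2-fold or more, so it did not rise as a whole. Besides SLC30A4, the importers SLC39A10 and SLC39A6 rose by 1.71 (SE 0.09) and 1.52 (SE 0.08). Of 19 genes of polyamine metabolism, 12 rose and 0 fell (8 and 0 with sets averaged), but 3 were lower under quantile normalization. ODC1, the rate-limiting decarboxylase, went from 9.62, 9.71 and 10.22 to 10.82, 11.23 and 11.42 and rose by 1.36 (SE 0.09, adjusted p = 8.19e-12). AMD1, which supplies the aminopropyl groups, rose by 1.68 (SE 0.08) and ARG2, which makes ornithine in mitochondria, by 3.05 (SE 0.12). The luminal share was also higher in every wild-type library than in any vector library, as given above.

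Iron, glutathione and steroid enzymes each held members that moved in opposite directions, as did all genes tested, of which 21.0% were higher and 24.5% lower. The falls in these lists lay near the share over all genes. Of 33 genes of iron handling, 14 rose and 7 fell (6 and 2 with sets averaged). FECH, which inserts iron into haem, went from 7.02, 7.19 and 7.57 to 9.92, 10.60 and 10.89 and rose by 3.32 (SE 0.11, adjusted p = 4.12e-18). FBXL5, an iron-sensing ubiquitin ligase subunit, rose by 0.77 (SE 0.07), and the mitochondrial iron carrier SLC25A28 fell by 0.68 (SE 0.06). Of 35 glutathione enzymes, 13 rose and 9 fell (10 and 7 with sets averaged). GSTT1 was below the floor in the vector and higher in wild type by at least 5.48 on the log2 scale, GGT1, which cleaves extracellular glutathione, rose by 3.66 (SE 0.15) and GSTM3 by 2.78 (SE 0.13). GSTP1, the transferase typical of basal cells, went from 12.81, 13.06 and 13.19 to 12.08, 12.32 and 12.55 and fell by 0.72 (SE 0.08). Among 37 steroid and glucuronidation enzymes, 16 rose and 7 fell (7 and 3 with sets averaged). UGT2B17 and UGT2B15, which conjugate androgens, were higher by at least 3.59 and 2.85, though these close paralogs may share reads. CYP1B1, which hydroxylates oestrogens, fell by 0.85 (SE 0.08).

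Genes of the early secretory pathway rose more often than they fell. Of 45 genes of its machinery, 27 rose and 2 fell (15 and 0 with sets averaged). SEC11C, of the signal peptidase, went from 7.19, 7.23 and 7.42 to 8.71, 9.29 and 9.41 and rose by 1.94 (SE 0.09, adjusted p = 2.99e-15). CREB3L4, a membrane-bound transcription factor of secretory cells and also a luminal marker, rose by 1.2 (SE 0.09), and SEC24D, of the COPII coat, by 0.90 (SE 0.07). Regulated exocytosis genes split: of 47, 21 rose and 16 fell (15 and 2 with sets averaged). RAB3B, a vesicle GTPase of secretory epithelia, rose by 2.09 (SE 0.09), and CADPS2, which primes dense-core vesicles, was higher by at least 4.04. Of 36 enzymes of O-glycosylation and sialylation, 11 rose and 14 fell (9 and 8 with sets averaged). ST6GALNAC1, which makes the sialyl-Tn antigen, was higher by at least 4.85, and ST3GAL1, which caps core 1 glycans, went from 8.47, 8.68 and 8.85 to 11.07, 11.65 and 11.89 and rose by 2.95 (SE 0.10). The branching enzymes GCNT2 and GCNT1 rose by 3.61 (SE 0.17) and 1.38 (SE 0.08).

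Of the degradation pathways, the lysosomal and autophagy lists held more falls than rises and the proteasome list more rises than falls. With a minimum fold of 1.2 the order turned for lysosomal genes (9 and 7) and was level for proteasome subunits (1 and 1). Of 43 lysosomal genes, 13 rose and 18 fell (9 and 9 with sets averaged). NAGLU, which degrades heparan sulphate, rose by 1.27 (SE 0.10) and the ceramidase ASAH1 by 0.98 (SE 0.07), while the peptidases CTSC and CTSA fell by 0.77 (SE 0.06) and 0.67 (SE 0.07). Of 41 autophagy genes, 9 rose and 19 fell (2 and 6 with sets averaged). The mitophagy receptor BNIP3L rose by 1.27 (SE 0.07) and the cargo receptor OPTN fell by 0.53 (SE 0.07). Proteasome subunits numbered 38, and 14 rose and 5 fell (1 and 1 with sets averaged). Of these, PSMB8, the inducible immunoproteasome subunit, fell by 0.65 (SE 0.07) and PSMD8 rose by 0.56 (SE 0.07); the 5 falls became 3 without vector replicate 2, vector replicate 5 or wild-type replicate 16.

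Membrane transporters and channels moved in both directions, as did all genes tested, of which 21.0% were higher and 24.5% lower. The rises of ABC transporters lay near the share over all genes. Of 43 amino acid and sugar transporters, 12 rose and 20 fell (11 and 8 with sets averaged). SLC43A1, a carrier of large neutral amino acids, went from 2.68, 3.38 and 3.75 to 9.44, 10.23 and 10.39 and rose by 6.82 (SE 0.15, adjusted p = 8.08e-22). SLC1A1, for glutamate and aspartate, rose by 4.22 (SE 0.17), SLC7A2, for arginine, by 4.21 (SE 0.13) and SLC2A12, for glucose, by 2.98 (SE 0.11). SLC7A5, the main importer of large neutral amino acids, fell by 0.49 (SE 0.11) with overlapping groups and lost its call with sets averaged (adjusted p = 0.124). Of 32 ABC transporters, 7 rose and 10 fell (7 and 5 with sets averaged). ABCA3, a lipid pump of lamellar bodies, rose by 3.80 (SE 0.16). Of 53 ion channels, 19 rose and 15 fell (17 and 9 with sets averaged), and the median change of 0.24 turned to -0.02 under quantile normalization. KCNN2, a calcium-activated potassium channel, was higher by at least 7.80, the calcium channel TRPV6 rose by 3.62 (SE 0.21) and the BK channel KCNMA1 by 2.58 (SE 0.13).

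Genes of receptor pathways fell more often than they rose, and each list held members with large rises. Of 24 ERBB receptors and ligands, 4 rose and 11 fell (3 and 6 with sets averaged). LRIG1, which promotes the degradation of ERBB receptors, went from 6.55, 6.83 and 7.01 to 10.02, 10.81 and 10.91 and rose by 3.87 (SE 0.11, adjusted p = 1.13e-19). EGF itself rose by 4.52 (SE 0.30) and ERBB3 by 0.59 (SE 0.06). Of 37 genes of the FGF family and its feedback, 8 rose and 16 fell (6 and 8 with sets averaged). The decoy receptor FGFRL1 rose by 2.30 (SE 0.10) and the ERK phosphatase gene DUSP4 by 1.44 (SE 0.09). The PEA3 factors did not move together: ETV1 went from 3.07, 4.02 and 4.70 to 9.10, 9.78 and 10.05 and rose by 5.72 (SE 0.21), while ETV4 and ETV5, chosen after their values were seen, fell by 0.81 (SE 0.13) and 0.80 (SE 0.10). In wild type ETV5 had a highest value of 5.68, below the lowest vector value of 6.13.

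The TGF-beta, WNT, Hippo and Hedgehog lists also held more falls than rises, except that with sets averaged or a minimum fold of 1.2 the counts were level for WNT and turned for Hedgehog. Of 51 genes of the TGF-beta and BMP pathway, 13 rose and 24 fell (10 and 14 with sets averaged). GDF15 went from 10.18, 10.45 and 10.61 to 12.93, 13.62 and 13.71 and rose by 3.07 (SE 0.13, adjusted p = 2.57e-16), the receptor gene BMPR1B rose by 1.58 (SE 0.09) and LTBP3, which holds latent TGF-beta in the matrix, by 1.56 (SE 0.10). INHBB, an activin subunit, was higher by at least 4.34, and TGFBI fell by 0.85 (SE 0.07). Of 50 WNT ligands, receptors and antagonists, 7 rose and 16 fell (4 and 4 with sets averaged), and 25 were lower under quantile normalization. The receptor FZD10 fell by 1.03 (SE 0.10), the ligand WNT10B rose by 0.91 (SE 0.11), and AXIN2, a feedback inhibitor, was higher by at least 2.62. Of 35 Hippo pathway and YAP target genes, 4 rose and 22 fell (2 and 8 with sets averaged). NF2 and AMOT, which restrain YAP, rose by 0.95 (SE 0.08) and 1.35 (SE 0.11), and FRMD6 fell by 0.71 (SE 0.07). Of 21 Hedgehog genes, 4 rose and 8 fell (4 and 2 with sets averaged), with 5 lower without wild-type replicate 18. SMO, the signal transducer, rose by 2.62 (SE 0.15) and PTCH1, its inhibitor and target, by 0.96 (SE 0.07), while the co-receptor GAS1 fell by 0.74 (SE 0.12).

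Rises and falls were equal in number in the PI3K list, and falls were the more numerous for insulin and guidance genes. The insulin counts lay near the shares over all genes, 21.0% higher and 24.5% lower. With a minimum fold of 1.2 the order turned for the insulin list (3 and 2). In the IGF list of 24 genes, 4 rose and 7 fell (3 and 3 with sets averaged). The insulin receptor gene INSR rose by 0.99 (SE 0.06) and the adaptor GRB10 by 0.88 (SE 0.06). Among 40 genes of the PI3K and AKT pathway, 12 rose and 12 fell (6 and 3 with sets averaged). PIK3CD, a catalytic subunit, rose by 1.32 (SE 0.08), the regulatory subunit gene PIK3R3 by 1.05 (SE 0.07) and DEPTOR, an inhibitor of mTOR, by 2.09 (SE 0.23). Among 61 axon guidance genes, 12 rose and 25 fell (8 and 12 with sets averaged), and their share went from 0.549% to 0.609% in the vector to 0.435% to 0.51% in wild type. NRP1, a co-receptor of semaphorins and VEGF, rose by 0.99 (SE 0.06) and SEMA6A by 2.62 (SE 0.16), and EPHA6 was higher by at least 4.09.

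Integrins and laminins fell more often than they rose, while particular matrix genes rose by large amounts. Of 38 integrins and laminins, 5 rose and 19 fell (2 and 7 with sets averaged), and their share went from 1.08% to 1.23% in the vector to 0.854% to 1.07% in wild type. ITGA3, a laminin-binding integrin, fell by 0.58 (SE 0.08). LAMB2, a laminin chain, went from 8.42, 8.69 and 9.47 to 11.06, 11.74 and 11.81 and rose by 2.76 (SE 0.15, adjusted p = 8.33e-14). Of 42 collagens, 7 rose and 15 fell (5 and 5 with sets averaged), and COL6A1 and COL6A2, which assemble with each other in collagen VI, rose by 4.01 (SE 0.12) and 3.33 (SE 0.12). For COL6A1 the values were 6.21, 6.79 and 6.93 in the vector and 10.11, 10.82 and 10.94 in wild type. Of 41 metalloproteinases and TIMPs, 10 rose and 13 fell (7 and 7 with sets averaged); the membrane-type proteases MMP16 and MMP15 rose by 5.19 (SE 0.15) and 2.18 (SE 0.10). Of 42 genes of caveolae and the contractile cytoskeleton, 5 rose and 22 fell (3 and 13 with sets averaged), among them PDLIM4, a LIM protein of stress fibres, which fell by 0.76 (SE 0.09). The basal marker share moved with these falls, as given above.

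Counts of tight junction genes and cadherins lay near the shares over all genes, 21.0% higher and 24.5% lower, and a few members rose by large amounts. Of 34 tight junction genes, 9 rose and 8 fell (6 and 4 with sets averaged). CLDN3 was higher by at least 6.51, CLDN4 went from 9.55, 9.67 and 9.94 to 10.67, 11.23 and 11.30 and rose by 1.46 (SE 0.10, adjusted p = 6.06e-12), and CGNL1, a protein of epithelial junctions, rose by 3.16 (SE 0.14). Of 50 cadherins and protocadherins, 8 rose and 11 fell (4 and 6 with sets averaged), with 20 lower under quantile normalization. CDH26 rose by 2.89 (SE 0.14) and PCDHB5 by 2.51 (SE 0.19).

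**Figure D4:**
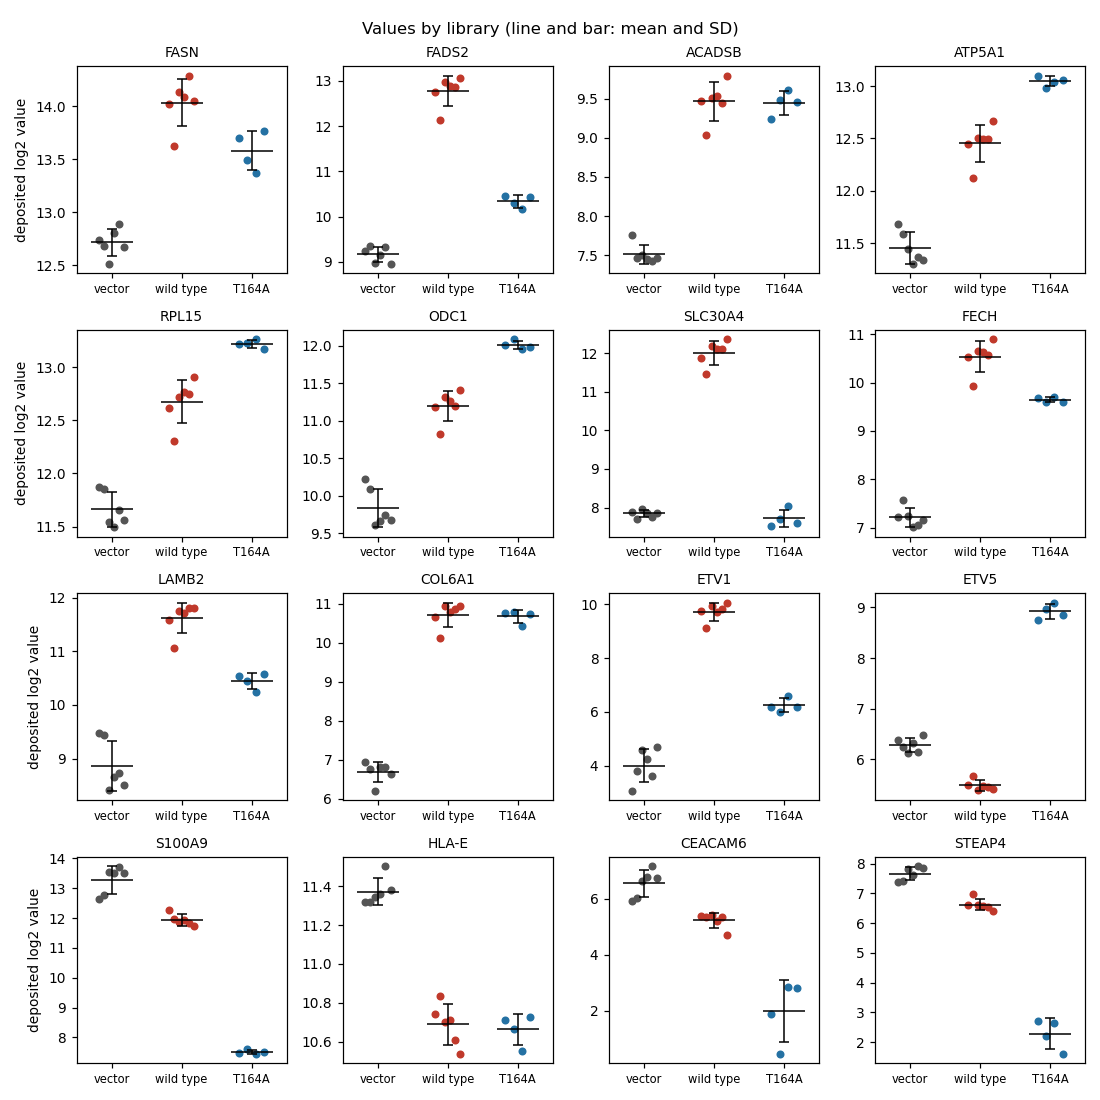
Deposited log2 value (y axis, scaled per gene) in each library for 16 genes, with vector in grey, wild type in red and T164A in blue; lines and bars give the mean and SD. Vector and wild-type points do not overlap in any of the 16 panels, but the rule by which genes were named favours such genes. Over all genes tested, the groups did not overlap for 29.4%.

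S100 proteins and annexins, calcium-binding proteins of the cell cortex and of inflamed epithelium, had the lowest median change of the lists outside the cell type markers, except under quantile normalization, where the retinoid genes were lower. Of 32 measured, 1 rose and 21 fell (1 and 14 with sets averaged), the median change was -0.55, and the share went from 0.409% to 0.529% in the vector to 0.274% to 0.338% in wild type. S100A9 went from 12.64, 13.52 and 13.72 to 11.74, 11.90 and 12.29 and fell by 1.35 (SE 0.14, adjusted p = 9.55e-09), and its partner S100A8 fell by 1.37 (SE 0.16). S100A6 fell by 0.87 (SE 0.07). The exception was ANXA6, an annexin of endosomes and the plasma membrane, which went from 4.60, 5.44 and 5.90 to 8.79, 9.56 and 9.73 and rose by 4.11 (SE 0.16). The squamous genes, whose summed share fell in the same libraries, are given above.

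Immune and coagulation genes fell more often than they rose, as did all genes tested, of which 24.5% fell. Of 43 complement and coagulation genes, 8 rose and 20 fell (6 and 10 with sets averaged). The urokinase gene PLAU fell by 0.81 (SE 0.07). TFPI, the inhibitor of tissue factor, went from 2.41, 3.05 and 3.59 to 8.75, 9.36 and 9.65 and rose by 6.27 (SE 0.16, adjusted p = 2.07e-20), and coagulation factor F5 was higher by at least 3.93. Of 35 antigen presentation genes, 8 rose and 15 fell (6 and 11 with sets averaged). HLA-E, a class I molecule, went from 11.32, 11.35 and 11.50 to 10.54, 10.71 and 10.84 and fell by 0.68 (SE 0.05), while CALR, a chaperone of class I loading, rose by 1.04 (SE 0.07) and HLA-DMB, which edits peptides on class II, was higher by at least 3.70. Of 42 chemokines and interleukin-1 family genes, 4 rose and 11 fell (3 and 6 with sets averaged), falls near the share over all genes, with IL1B down by 1.04 (SE 0.10) and its antagonist IL1RN down by 0.81 (SE 0.09). Of 48 apoptosis regulators, 9 rose and 16 fell (5 and 7 with sets averaged), and the 9 rises became 5 without vector replicate 4. The decoy receptors TNFRSF10D and TNFRSF10C rose by 3.66 (SE 0.12) and 3.30 (SE 0.21), and CASP8, the initiator caspase, fell by 0.58 (SE 0.06).

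Lists of regulators of transcription, RNA processing and DNA held both rises and falls. Falls were the more numerous in each, as they were over all genes tested (21.0% higher and 24.5% lower). The counts for nuclear receptors lay near those shares. The order turned for chromatin remodelling and DNA repair with sets averaged or with a minimum fold of 1.2 in the test. With that minimum fold it also turned for nuclear receptors (9 and 6) and was level for splicing regulators (4 and 4). Of 45 nuclear receptors, 12 rose and 13 fell (8 and 9 with sets averaged). NR4A1, an immediate response gene, rose by 1.88 (SE 0.18), and the vitamin D receptor VDR fell by 0.62 (SE 0.07). Of 25 retinoid genes, 4 rose and 10 fell (3 and 6 with sets averaged), while their summed share was higher, at 0.0709% to 0.0979% in wild type against 0.0482% to 0.0557% in the vector. RDH11, a retinal reductase and luminal marker, rose by 1.84 (SE 0.08), and CRABP2, which carries retinoic acid to the nucleus, fell by 1.02 (SE 0.09). Of 24 circadian clock genes, 2 rose and 17 fell (1 and 5 with sets averaged); ARNTL, of the activating arm, and CRY2, of the repressing arm, fell by 0.58 (SE 0.07) and 0.53 (SE 0.08). Of 40 splicing regulators, 6 rose and 18 fell (3 and 5 with sets averaged). RBM24, a muscle factor, was higher by at least 6.17, and RBM47 rose by 0.88 (SE 0.07) while the epithelial factor ESRP1 fell by 0.43 (SE 0.06). Of 52 genes of DNA methylation and chromatin remodelling, 15 rose and 23 fell (7 and 4 with sets averaged), with TET1, which oxidises methylcytosine, up by 2.79 (SE 0.20), the remodeller PBRM1 up by 0.64 (SE 0.06) and HDAC11 up by 1.05 (SE 0.11). Of 54 DNA repair genes, 14 rose and 18 fell (5 and 3 with sets averaged), including FANCD2, of crosslink repair, which rose by 0.66 (SE 0.07).

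Germline antigens and some imprinted genes were among the large rises. Of 40 cancer-testis antigens, 13 rose and 1 fell (12 and 0 with sets averaged), and 22 lay below the floor in both groups. PRAME was below the floor in the vector and lay at 8.94, 9.82 and 10.03 in wild type, higher by at least 7.39. MAGEA3, whose close paralogs may share its reads, was higher by at least 6.67. Of 36 imprinted genes, 10 rose and 11 fell (10 and 4 with sets averaged), with 17 lower under quantile normalization. The growth suppressor NDN and MKRN3, both from the imprinted Prader-Willi region, were higher by at least 5.30 and 3.95. SNURF, from the same region, rose by 3.24 (SE 0.43) and ATP10A, a lipid flippase gene near it, by 3.38 (SE 0.29). Of 45 cilium genes, 20 rose and 6 fell (12 and 2 with sets averaged), with the dynein DNAH5 up by 3.02 (SE 0.14). Wild-type replicate 14 was the lowest of the 6 libraries for PRAME, MAGEA3 and NDN, at 8.94, 8.28 and 6.93.

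Some members of the marker lists moved against the rest of their list. STEAP4, a metalloreductase listed as luminal, went from 7.37, 7.71 and 7.92 to 6.42, 6.59 and 6.99 and fell by 1.04 (SE 0.17, adjusted p = 1.42e-05), and the simple-epithelial keratin KRT19 fell by 0.56 (SE 0.08). These were the 2 luminal markers that fell. MME, a peptidase listed as basal, went from 8.06, 8.38 and 8.71 to 11.99, 12.66 and 12.97 and rose by 4.23 (SE 0.13). Whether MME marks basal rather than luminal cells was not tested, so its rise may not be an exception. JAG2, a NOTCH ligand, rose by 0.33 (SE 0.09) with overlapping groups and lost its call with sets averaged (adjusted p = 0.185). TGM3, an epidermal transglutaminase, was the 1 squamous gene that rose, by 1.24 (SE 0.21).

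**Figure D5:**
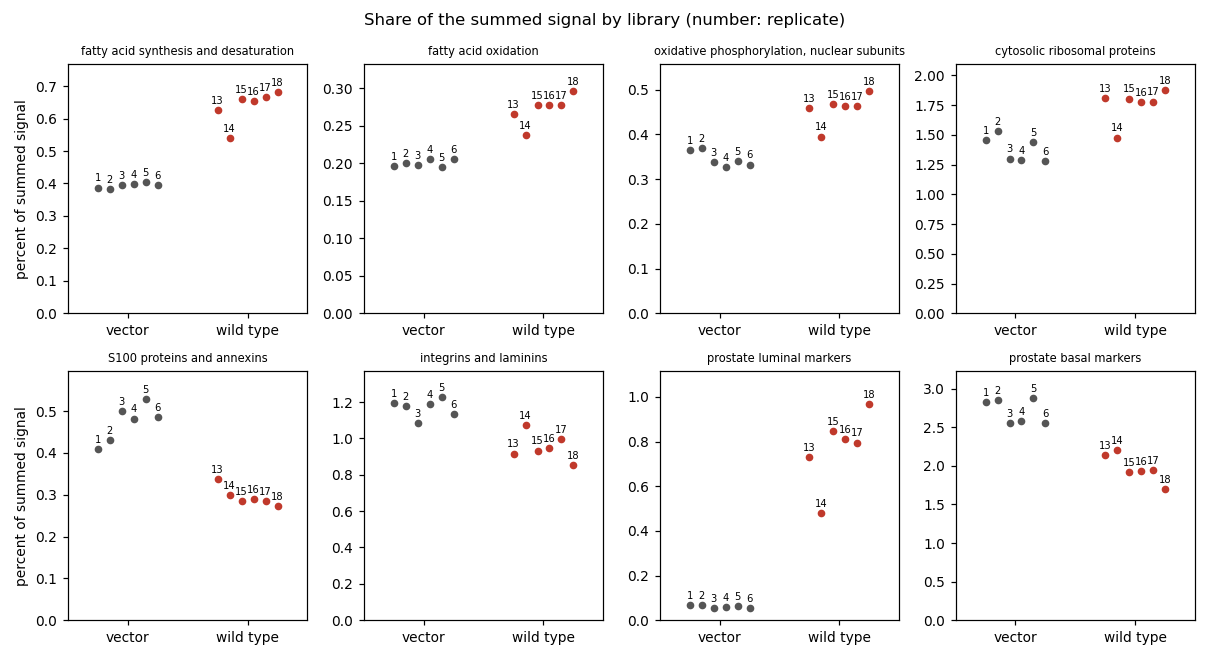
Share of the summed signal (percent, y axis) of 8 gene lists in each vector (grey) and wild-type (red) library, numbered by replicate. In the luminal panel the vector libraries lie at 0.0556% to 0.0674% and the wild-type libraries at 0.48% to 0.969%, with replicate 14 lowest.

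The T164A libraries give a second reference for the same wild-type libraries, but their profile differed from that of the vector. Squamous genes made up 0.0191% to 0.0235% of the signal in T164A, against 0.876% to 1.15% in the vector. Cytosolic ribosomal protein genes made up 2.826% to 3.176% in T164A, against 1.279% to 1.535% in the vector. Whether the mutant, the culture or a batch underlies the differences below was not tested. The T164A libraries were compared directly with wild type, and since both comparisons use the same wild-type libraries, no overlap between them is given. COL6A1, raised against the vector, had lowest, median and highest values of 10.43, 10.75 and 10.78 there and differed from wild type by 0.04 (SE 0.13, adjusted p = 0.842, limma). ANXA6 was higher in T164A, at 11.60, 11.77 and 11.86, with a difference of -2.30 between wild type and T164A (adjusted p = 1.85e-11), and so was SLC7A2, with -2.01 (adjusted p = 7.02e-12). ODC1 and RPL15 were also higher in T164A, by differences of -0.81 and -0.55. Others were far lower in T164A than in wild type. SLC30A4 had values of 7.52, 7.66 and 8.04 in T164A and a difference of 4.30 (adjusted p = 2.59e-20), SPON2 a difference of 9.13 and MME of 6.47. Genes that fell in wild type were lower still in T164A in several cases, with a difference of 4.43 for S100A9 and 3.66 for KRT6B. ETV5 fell in wild type and lay at 8.76, 8.92 and 9.10 in T164A, a difference of -3.44 (adjusted p = 1.07e-18).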

How the data were processed

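The authors deposited log2 values per gene symbol and library; the transformation behind them is not stated in the labels or the file. Per the submitters' processing notes, the build was GRCh37 and the tools were DESeq, Cufflinks 2.0.2, TopHat2 2.0.4 and CASAVA 1.8.2, with no roles given; per the labels' protocols, poly-A RNA was sequenced. Of 21594 rows, 1732 shared 304 symbols, and of these the row of highest mean over the 16 columns was used, which left 20166 symbols. Above a deposited value of 11.5, 2 raised to the value lies on equal steps after an offset of 1.89 is removed, within 0.05 of a step. These steps gave the estimated depth and the floor of 3 reads. Between 10 and 10.5 only 8.29% to 11.4% of values lie on a step, so whole reads could not be recovered and a count test was not used. The gene carried by the construct and some others are not reported here.

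All 16 libraries entered 1 limma model (limma 3.58.1, R 4.3.3; variance trend, two-sided, Benjamini-Hochberg over all symbols, threshold 0.05). Data were simulated from the means and spreads of all 20166 genes, and only genes at an expressed level were given changes. For those genes this comparison recovered 88% of changes of 0.5 (log2) and 36% of changes of 0.25, treating libraries as independent. Recovery for genes near the floor was not tested. Within groups, each pair of libraries was compared over 547 genes by chi-square of estimated reads, and those below 38 per degree of freedom were put in 1 set. The widest pair inside a set had 37.26 (wild-type replicates 13 and 18). The closest pair in different sets had 39.35 (vector replicates 1 and 5), so the wild-type set depends on the cut. Alternatives were quantile normalization, a filter on low values, fitting only the 2 groups, a minimum fold of 1.2, array weights, a fit with no variance trend, sets averaged, and leaving out each library.

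The comparison and the 57 gene lists (2091 of 2112 places measured) were chosen with earlier results of these data known. In each list the text names up to 4 called members with the smallest p, groups that do not overlap and a higher mean of at least 5, and members that moved by 1 or more against their list. It also names the 15 largest rises and falls from a vector mean of 6 or more outside the cell type markers, and the 12 largest gains and losses of signal; some that met the rule are left out. GSTP1, S100A8, KRT19, JAG2, ETV4 and ETV5 were chosen after their values were seen. Overlapping genes and near-identical copies were not separated.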

Additional observations from a re-analysis of the deposited data

Results flagged for a closer look

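Each group of 6 libraries was checked for a value far from the others, by the gap to the nearest library over the whole range (Dixon's ratio above 0.625), for the 183 named genes in vector and wild type. Of 366 groups checked, 63 values were found. Chance gives about 1 in 20 groups, and genes of the same library are not independent.

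Wild-type replicate 14 gave 46 of the 63. It was low, in log2 units, for COL6A1 (10.11), LRIG1 (10.02), HES6 (9.31), LIMCH1 (11.89), FADS2 (12.13), ABHD2 (13.55), LPHN1 (9.95), EEF1A2 (11.13), SPON2 (12.50), ACACA (12.55), HADH (9.54), ETFB (9.48), PDHB (9.41), NDUFA1 (9.34), RPL32 (11.19), RPL3 (13.07), PRPS1 (9.51), UGT2B15 (4.09), SEC11C (8.71), CALR (13.50), GCNT2 (6.73), ST3GAL1 (11.08), NAGLU (8.88), PSMD8 (10.59), SLC43A1 (9.44), ABCA3 (8.94), KCNMA1 (8.63), FGFRL1 (10.05), ETV1 (9.10), DEPTOR (5.44), SEMA6A (6.46), LAMB2 (11.07), COL6A2 (8.86), MMP16 (9.04), MMP15 (9.52), CGNL1 (8.22), CLDN4 (10.67), ANXA6 (8.79), F5 (5.55), TNFRSF10C (6.39), NDN (6.93), MAGEA3 (8.28) and PRAME (8.94). These genes had all risen against the vector, and each value still lay above the highest vector library. Replicate 14 was high for CYP1B1 (10.06), ETV5 (5.68) and STEAP4 (6.99), all of which had fallen. It also had the lowest luminal share of the 6 libraries, at 0.48%. None of the calls of the 183 named genes, most of them chosen for a small p or a large change, was lost without it.

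The other 17 values were spread over 7 libraries. Wild-type replicate 18 was low for KCNJ15 (5.85), CEACAM6 (4.70) and GAS1 (5.59), and wild-type replicate 13 was high for S100A8 (11.85). Vector replicate 5 was high for PKP1 (16.68), CLDN4 (9.94) and HLA-E (11.50) and low for KCNN2 (-1.53) and PBRM1 (10.30). Vector replicate 3 was high for ACSL1 (11.17), SLC2A12 (6.72) and ETV4 (6.10), vector replicate 4 was low for SLC39A6 (9.57) and PCDHB5 (5.35), vector replicate 1 was high for ACADSB (7.76) and low for TET1 (1.69), and vector replicate 2 was high for RBM24 (1.94). The values of KCNN2, RBM24 and TET1 given here lie below the floor of 2.30.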

How the results depend on the processing

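No paired analysis was possible because the groups share no replicate numbers. The counts of genes were recomputed under each alternative. Genes higher in wild type numbered 4244, and 2513 with a minimum fold of 1.2 or 2274 with sets of close libraries averaged. Genes lower numbered 4939, and 1578 or 1547 under the same alternatives. Genes lower by 2-fold or more numbered 252, and 836 with quantile normalization, 140 with a minimum fold of 1.2 and 106 with sets averaged. Without 1 library at a time the ranges were 4051 to 4351 higher, 4595 to 5147 lower, 1489 to 1618 higher by 2-fold or more and 218 to 325 lower by 2-fold or more. The causes of these differences were not tested. None of the 183 named genes changed sign. Calls were lost for 2 with quantile normalization, 3 with a minimum fold of 1.2 and 6 with sets averaged, and for none without any 1 library. Most of the 183 were named for a small p or a large change, so these counts do not measure how firm calls are over all genes. At a vector mean below 1, 4705 genes had a mean SD of 1.03 across vector libraries. Their vector means lie below the floor of 3 reads.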
